A study of Rattus norvegicus with 34 samples.

Results

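The genes described here are those of the proteasome, the protease that degrades ubiquitin-tagged proteins, as measured in whole testis of adult male rats. They were chosen by symbol: a probe set (the group of array oligos that reports 1 transcript) counted as a member where the platform annotation gave it a single gene symbol made of Psm, a letter from a to g and a number. This gave 60 probe sets of 46 genes among 31042 probe sets tested, of which 20826 carried 1 symbol. Of the 46 genes, 44 are subunits or helpers of the proteasome. The other two, Psmc3ip (a meiotic recombination factor) and Psme3ip1 (a protein that binds an activator), share only the symbol's pattern and are kept apart. Probe sets with several symbols were not used (6 with a proteasome symbol among them), so Psmb6 and Psme3 are not analysed here, nor is Psma8.

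The study fed Wistar Han rats 3 triazole fungicides and measured testis RNA on Affymetrix rat genome arrays, which read RNA by short oligos near the 3′ end. Feeding ran from gestation day 6 to postnatal day 92, and 31 of 34 labelled samples had values, 1 array for each animal number. The groups were Control (0 ppm, 6 arrays), M500 and M2000 (myclobutanil at 500 and 2000 ppm, 3 and 5 arrays), P500 and P2500 (propiconazole at 500 and 2500 ppm, 4 and 5 arrays), and T500 and T1800 (triadimefon at 500 and 1800 ppm, 4 and 4 arrays). The labels say that 3 samples had no part in the authors' final analysis (1 each of Control, M500 and T1800), and they were not analysed here. All groups are of 1 strain, and the RNA is that of the whole organ, so germ cells, Sertoli cells, Leydig cells, vessels and leukocytes are mixed, and fewer cells of a type and less RNA per cell cannot be told apart. The labels used here name no litters. If animals shared a litter they were not independent, and the p-values then cover only the spread between these arrays.

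The proteasome core is a barrel of stacked rings: outer rings of alpha subunits (Psma genes) gate the entrance, and inner rings of beta subunits (Psmb genes) hold the active sites. The regulatory particle has a base of ATPases that unfold the substrate (Psmc genes) and a lid that removes ubiquitin (most Psmd genes), while Psme genes encode alternative activator caps. Interferon-gamma leads many cells to build the immune beta forms Psmb8, Psmb9 and Psmb10 in place of the constitutive Psmb5, Psmb6 and Psmb7, which favours peptides for antigen presentation. In testis, germ cells make their own alpha form (Psma8), and the activator Psme4 (PA200) is known for the removal of histones in spermatids.

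Promoter windows were read for the immune form Psmb8, the immune form Psmb10, the activator gene Psme2 and, as the constitutive counterpart of Psmb8, Psmb5. They are shown because the results below turn on the immune forms and activators, a choice made after their values were seen. The interferon-stimulated response core (GAAA, any 2 bases, GAAA) is known from the promoters of interferon-induced genes. Each window runs from 150 bases before to 10 bases from the RefSeq start site (assembly GRCr8), 5′ to 3′ on the gene's strand, which is minus for all 4. The intervals are chr20:4657022-4657181 for Psmb8, chr19:50743283-50743442 for Psmb10, chr15:33052742-33052901 for Psme2 and chr15:32047370-32047529 for Psmb5. Capitals mark the interferon-stimulated response core in the first 3 (in Psmb8 on the opposite strand) and the antioxidant response core TGACNNNGC in Psmb5.
Psmb8: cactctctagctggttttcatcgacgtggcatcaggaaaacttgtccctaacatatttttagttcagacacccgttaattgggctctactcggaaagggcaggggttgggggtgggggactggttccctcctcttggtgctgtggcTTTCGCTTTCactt
Psmb10: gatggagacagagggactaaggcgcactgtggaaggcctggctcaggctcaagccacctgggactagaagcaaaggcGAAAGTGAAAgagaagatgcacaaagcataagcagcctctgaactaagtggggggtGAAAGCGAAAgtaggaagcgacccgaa
Psme2: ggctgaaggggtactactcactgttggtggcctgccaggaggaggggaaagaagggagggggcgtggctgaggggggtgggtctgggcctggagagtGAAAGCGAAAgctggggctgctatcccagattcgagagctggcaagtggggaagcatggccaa
Psmb5: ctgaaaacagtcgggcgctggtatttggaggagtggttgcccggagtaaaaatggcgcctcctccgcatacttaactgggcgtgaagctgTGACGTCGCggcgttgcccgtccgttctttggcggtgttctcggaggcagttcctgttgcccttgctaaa

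Over the full 300 bases of the table's promoters (250 before and 50 after the start), 42 of the 46 genes were matched. The interferon-stimulated response core occurred in 7 of them (16.7%, against 3.92% of all 33469 promoters): Psmb8, Psmb10, Psme2, Psma4, Psmb3, Psmd7 and Psmg4. Psmb9 and Psme1 held none in this window, so the windows printed above for immune forms and an activator are ones that held it. The Ets core CCGGAAG was in 15 (35.7%, against 8.75%), with Psma6, Psmb4, Psmb7 and Psmc2 among them, and the CCAAT box in 22 (52.4%, against 37.5%). TGACNNNGC was in 7 (16.7%, against 12.1%) and the gamma-activated site core TTCNNNGAA, whose letters can overlap it, in 4 (9.52%, against 8.87%). These matches describe letters, with both strands searched, and do not show that a factor binds.

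The values are scores on a log-like scale whose base is not known, and a difference is therefore stated in score units, with no fold. A score of 0 lies near the middle of an array. Arrays were quantile normalized and fitted together with limma, and a member was called where its p, adjusted by Benjamini-Hochberg over all 31042 probe sets, was below 0.05. RNA quality was read as the actin gap: how far the control probe set at the 3′ end of beta-actin scored above the one at its 5′ end, which grows as RNA is degraded or copied short. It was above 1.4 on 5 arrays and at most 1.33 on the rest. The 5 were replicates 02 and 06 of Control, replicate 04 of M500 and replicate 05 of both M2000 and P2500. P2500 replicates 02 to 04 carried liver transcripts (Alb scores from 3.89 to 4.15, against at most 2.29 elsewhere). Control replicates 05 to 07 and T1800 replicates 03 to 05 came from a later series of animal numbers than all others. The organ label fitted its markers: the spermatid genes Odf1, Tnp1 and Prm2 had mean control scores of 4.43, 4.30 and 3.60, among the brightest of all probe sets.

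Proteasome genes were bright in control testis. Taking for each gene its brightest probe set, 46 of 46 genes lay above the 50th percentile of all probe sets in mean control score, 40 above the 75th, 26 above the 90th, 13 above the 95th and 4 above the 99th, with a median at percentile 90.8. Choosing the brightest probe set of a gene raises these ranks. Over all 60 probe sets, 55 lay above the 50th percentile, 45 above the 75th, 28 above the 90th and 14 above the 95th. Probe sets differ in how well they bind their target, so the order of genes is one of signal and not of transcript number. The highest was Psma6, an alpha ring subunit, at 3.89 ± 0.147 (SD, n = 6; percentile 99.9). It was followed by the ATPase Psmc2 at 3.06 ± 0.114 (percentile 99.4) and the inhibitor Psmf1 (PI31) at 2.89 ± 0.0849 (percentile 99.1), with the ATPase Psmc3 next at 2.87 ± 0.104. Psmf1 and Psmc3 did not differ beyond their spread.

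Roles differed in rank. The 6 constitutive beta genes measured had a median at percentile 95.7 (89.7 to 98.0), the 6 ATPases at percentile 95.6 (77.4 to 99.4), the 3 scaffold and ubiquitin receptor genes (Psmd1, Psmd2, Psmd4) at percentile 91.5, the 8 lid genes at percentile 91.1, the 4 core assembly chaperones (Psmg genes) at percentile 91.1 and the 7 alpha genes at percentile 89.9 (69.0 to 99.9). The 3 base assembly chaperones (Psmd5, Psmd9, Psmd10) had a median at percentile 80.7 and the 3 activators at percentile 79.5. The activators were spread: Psme4 lay at percentile 98.3 with 2.49 ± 0.182, while Psme1 lay at percentile 79.5 with 0.619 ± 0.105 and Psme2 at percentile 74.9 with 0.460 ± 0.102. The immune forms ranked lowest, with a median at percentile 70.3. Psmb10 had 0.401 ± 0.189 (percentile 72.7), Psmb8 0.338 ± 0.111 (percentile 70.3) and Psmb9 0.0800 ± 0.112 (percentile 55.4). Psmb9 had the lowest rank of the 46 genes, followed by the alpha gene Psma3 at 0.308 ± 0.145 (percentile 69.0) and the base chaperone Psmd5 at 0.317 ± 0.0674 (percentile 69.4). Psmb10, Psmb8, Psmd5 and Psma3 lay within 1 SD of their neighbours in that order. Psmc3ip, the recombination factor, had 1.85 ± 0.261 (percentile 95.7).

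**Figure D1:**
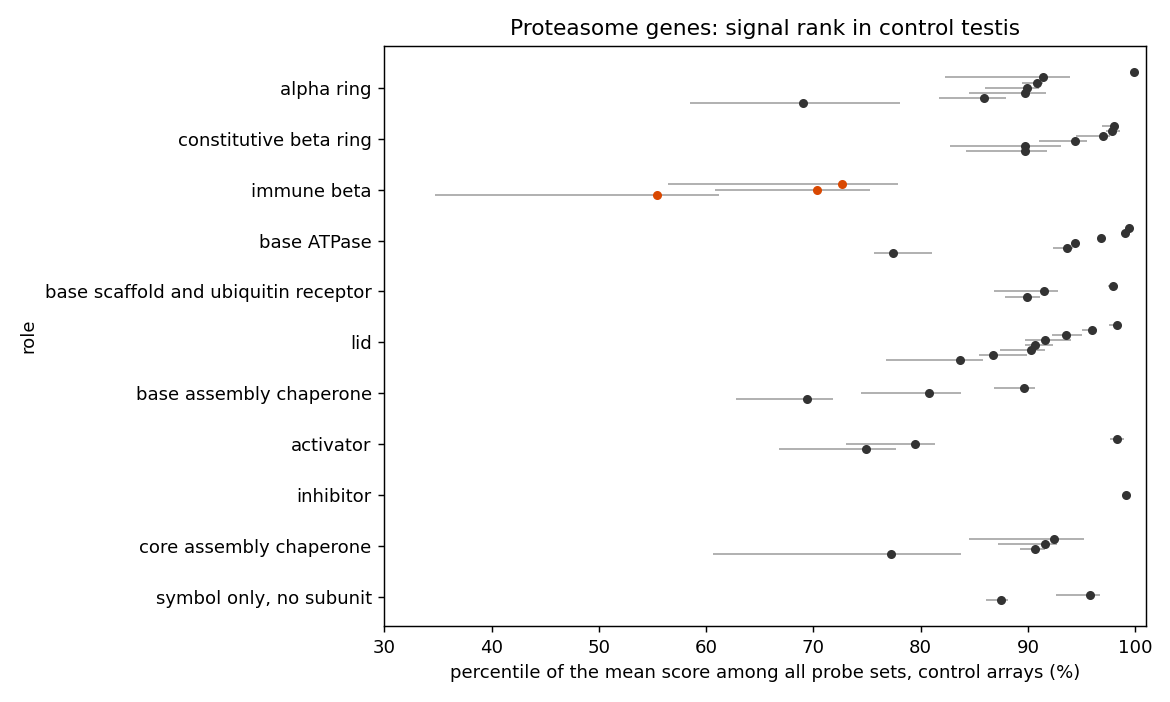
Percentile of the mean control score of each proteasome gene among all probe sets (x axis, percent; 1 point per gene, brightest probe set), by role (y axis). Grey lines run from the lowest to the highest of the 6 control arrays, and orange points are the 3 immune beta genes, which lie at percentiles 55.4, 70.3 and 72.7 while the constitutive beta genes lie between percentiles 89.7 and 98.0.

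The 14 further probe sets of 9 genes were dimmer than the one used for their gene, which the choice of the brightest sets in advance. Psmb5, for example, had its brightest probe set at 2.40 ± 0.154 and others at -0.0816 and -0.190, and Psme1 had a second at -0.115. A second probe set of Psme4 was still at 1.92 (percentile 96.1). Where such probe sets went the other way from the brightest one, this is said beside the result.

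The question put to the 6 exposed groups was whether any diet moved the proteasome genes from control. No proteasome probe set passed the adjusted threshold in any of them by limma (0 of 60 in each group). The background was as low: 0% of all probe sets passed in M500, M2000, P500, P2500 and T500, and 0.00644% (2 probe sets) in T1800. The smallest adjusted p of a member was 0.11 in M500, 1 in M2000, 1 in P500, 0.7 in P2500, 0.52 in T500 and 0.53 in T1800. All comparisons with control share the same 6 control arrays, so they are not independent of each other, and what follows below this threshold is described at an unadjusted p below 0.05.

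At that unadjusted p, 15 of 60 proteasome probe sets were higher in T500 (background 4.04%) and 13 of 60 in T1800 (background 3.5%). The count was 8 in M500 (background 4.85%), 4 in P500 (2.07%), 3 in P2500 (2.41%) and 2 in M2000 (0.934%). Lower at that p were 1 probe set in M500 (background 4.15%), 1 in P2500 (1.74%) and 1 in T500 (3.58%), and 0 in M2000 (0.767%), P500 (1.28%) and T1800 (2.35%). The median difference from control over the 60 probe sets was 0.0422 in T500, 0.0457 in T1800, 0.0317 in M500, 0.0287 in P500, 0.0216 in M2000 and 0.0140 in P2500. Over all probe sets it lay between -0.00358 and 0.000708. On the scores as deposited the medians over the 60 were 0.0273, -0.00513, 0.149, -0.0198, -0.0523 and -0.0313 in the same order, so the sign turned in T1800, P500, M2000 and P2500.

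The actin gap also differed between the groups. Its mean was 1.12 in Control, 0.790 in T500 and 0.852 in T1800, and no array of either triadimefon group was above 1.4 while 2 of 6 control arrays were. In the other groups, whose counts were lower, the mean was 1.08 in M500, 0.994 in M2000, 1.14 in P500 and 1.02 in P2500. How the gap and the counts relate over the groups was not tested. With the gap as a covariate, 9 probe sets were higher at an unadjusted p below 0.05 in T500 and 10 in T1800, and without the 5 arrays of large gap, 10 and 6. Leaving out Control replicate 06 alone left 8 and 6, and leaving out T500 replicate 03 or 04 left 8 in T500. Without T1800 replicate 02, 7 remained in number in T1800. With the earlier and later animal numbers as a block the counts were 5 in T500 and 15 in T1800, and with only the compared groups in the fit 8 and 6. On the scores as deposited they were 8 and 7. The share of all probe sets at that p is not given for these alternative fits, which differ in arrays and spread. A lower count there therefore does not show that fewer proteasome genes differ. The part of RNA quality in these counts was not tested beyond these fits.

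By role, 6 of 7 alpha genes and 3 of 6 constitutive beta genes were higher in T500 at an unadjusted p below 0.05 (background 4.04%). The 6 were Psma1, Psma2, Psma4, Psma5, Psma6 and Psma7, and the 3 were Psmb2, Psmb3 and Psmb7. Median differences in T500 were 0.185 for alpha and 0.225 for constitutive beta genes, and 7 of 7 and 6 of 6 lay above 0. The ATPases (median -0.0193, 2 of 6 above 0) and the lid (-0.0155, 4 of 8) had medians below 0. Without the arrays of large actin gap the alpha median was 0.0828 and the constitutive beta median 0.0902. In that fit the ATPase and lid medians turned sign, to 0.0106 and 0.0180.

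Psma6 had control scores from 3.60 to 3.99 with a median of 3.95. In T500 it had 3.99, 4.06, 4.15 and 4.12. The lowest T500 array tied with the highest control array: Psma6 is among the brightest probe sets of every array, where quantile normalization gives equal ranks equal scores. The difference was 0.185 (SE 0.0520, limma adjusted p = 0.52, 4 of 4 arrays above the control mean). Psma1, another alpha ring subunit, had control scores from 0.706 to 1.04 with a median of 0.966, and 1.10, 1.10, 1.22 and 1.05 in T500. No T500 array was as low as any control array, and the difference was 0.209 (SE 0.0623, limma adjusted p = 0.52). It was the 1 of 60 probe sets with every T500 array above every control array (background 0.731%).

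Psmd10 (gankyrin), a chaperone of base assembly, had control scores from 0.966 to 1.25 with a median of 1.22, and 1.25, 1.24, 1.41 and 1.37 in T500. Its difference was 0.163 (SE 0.0481, limma adjusted p = 0.52), with the lower T500 arrays among the higher control arrays. On the other side, the base scaffold Psmd2 was 0.123 lower in T500 than in Control, at 2.33, 2.38, 2.12 and 2.18 against a control range of 2.24 to 2.56. Its limma adjusted p was 0.64. Psmd11, a lid subunit, differed by -0.118 (SE 0.0735, adjusted p 0.68 by limma), and 1 of its other 2 probe sets had the opposite sign. Psmd2 was also the 1 probe set counted as lower in M500 (difference -0.133, limma adjusted p = 0.54). Its mean lay below that of Control in each exposed group, though its sign turned under some alternative fits given below.

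**Figure D2:**
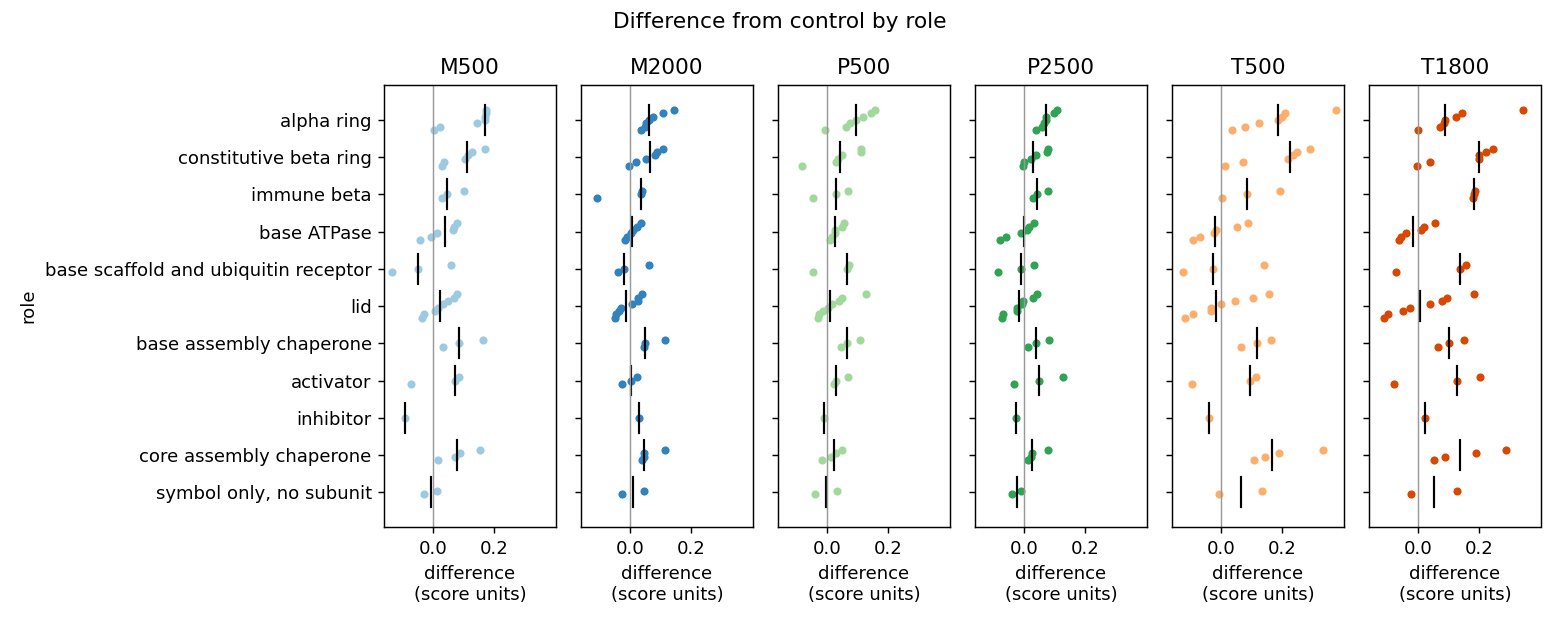
Difference of each proteasome gene from control in score units (x axis, brightest probe set per gene) by role (y axis), 1 panel per exposed group. Points are genes and black bars role medians; in T500 the alpha and constitutive beta medians lie at 0.185 and 0.225 and in T1800 the immune beta median at 0.183, and no gene shown passed the adjusted threshold.

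In T1800, the high triadimefon diet, all 3 immune forms were higher than in Control at an unadjusted p below 0.05 (background 3.5%). Their median difference was 0.183. The activators Psme1 and Psme2, whose products form a cap induced along with the immune forms, were higher at that p too. In T1800 4 of 7 alpha genes (Psma1, Psma2, Psma4, Psma7) and 2 of 6 constitutive beta genes (Psmb3, Psmb7) were also higher at that p. Without the arrays of large actin gap the immune beta median was 0.120, with 3 of 3 above 0.

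Psmb8 had control scores from 0.158 to 0.476 with a median of 0.325. It had 0.359, 0.367 and 0.374 in M500, and 0.262, 0.198, 0.225, 0.222 and 0.244 in M2000. In P500 the scores were 0.331, 0.168, 0.402 and 0.270, and in P2500 they were 0.384, 0.415, 0.413, 0.423 and 0.265. The T500 arrays split, with 0.221 and 0.184 below and 0.530 and 0.426 above the control median. In T1800 it had 0.590, 0.462, 0.648 and 0.390, all above the control mean, though 2 of the 4 lay below the highest control array. The difference in T1800 was 0.185 (SE 0.0615, limma adjusted p = 0.75). In M2000 every array lay below the control mean, with a difference of -0.108 (SE 0.0576) and a limma adjusted p of 1.

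Psmb9 had control scores from -0.133 to 0.165 with a median of 0.126. The 4 T1800 arrays had 0.298, 0.212, 0.330 and 0.202, above every control array. The difference was 0.180 (SE 0.0505, limma adjusted p = 0.54). Psmb9, Psme1 and the ubiquitin receptor Psmd4 were the 3 of 60 probe sets with every T1800 array above every control array (background 1.13%). Psmd4 had 1.49, 1.46, 1.47 and 1.47 in T1800 against control scores from 0.970 to 1.46, a difference of 0.155 (limma adjusted p = 0.77). Over the other exposed groups Psmb9 ran from 0.00997 in a P2500 array to 0.307 in another P2500 array, and its differences from control were 0.0344 to 0.0847.

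Psmb10 had control scores from 0.0926 to 0.559 with a median of 0.485. In T1800 it had 0.590, 0.584, 0.611 and 0.550, and in T500 0.505, 0.497, 0.673 and 0.700. Of the T1800 arrays 1 lay below the highest control array, and the T1800 spread was narrow (SD 0.0251). The differences were 0.183 in T1800 (limma adjusted p = 0.77) and 0.193 in T500 (limma adjusted p = 0.63). The lowest control values, 0.0926 and 0.247, came from the control arrays of large actin gap. The other control arrays had 0.447 to 0.559, nearer to the T1800 scores. Without the 5 arrays of large gap the immune forms kept the sign given above in T1800, with a smaller median difference (0.120 in place of 0.183).

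Of the constitutive counterparts, Psmb7 was higher in T1800 at an unadjusted p below 0.05 and Psmb5 was not. Psmb5, which holds the chymotrypsin-like site that Psmb8 takes over, had control scores from 2.11 to 2.57 with a median of 2.43, and 2.38, 2.40, 2.41 and 2.43 in T1800. The groups overlapped wholly, with a difference of -0.00285 (SE 0.0687, limma adjusted p = 0.99). Psmb7, which holds the trypsin-like site that Psmb10 takes over, had control scores from 1.29 to 1.83 with a median of 1.73. It had 1.87, 1.77, 1.86 and 1.86 in T1800 and 1.79, 1.81, 1.91 and 1.92 in T500. The differences were 0.200 (SE 0.0782) in T1800, with a limma adjusted p of 0.77, and 0.217 in T500, with 0.57.

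Within each array the pair difference Psmb8 minus Psmb5 removes what the array's level adds to both, and its change between groups removes probe affinity. It averaged -2.07 ± 0.0765 in Control (n = 6) and -1.88 ± 0.130 in T1800 (n = 4), a change of 0.187. In M2000 it averaged -2.17 ± 0.116 (n = 5), a change of -0.104. In the other groups the change lay between -0.00962 (T500) and 0.0450 (P2500), within 1 SD of the control arrays. The pair Psmb10 minus Psmb7 changed by -0.0458 to -0.000540 over the 6 groups, against a control SD of 0.0385, with T1800 at -0.0172. On the scores as deposited, where arrays differ in gain, the Psmb8 pair changed by 0.324 in T1800 and by 0.128 in M2000, so the sign in M2000 depends on the scaling.

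**Figure D3:**
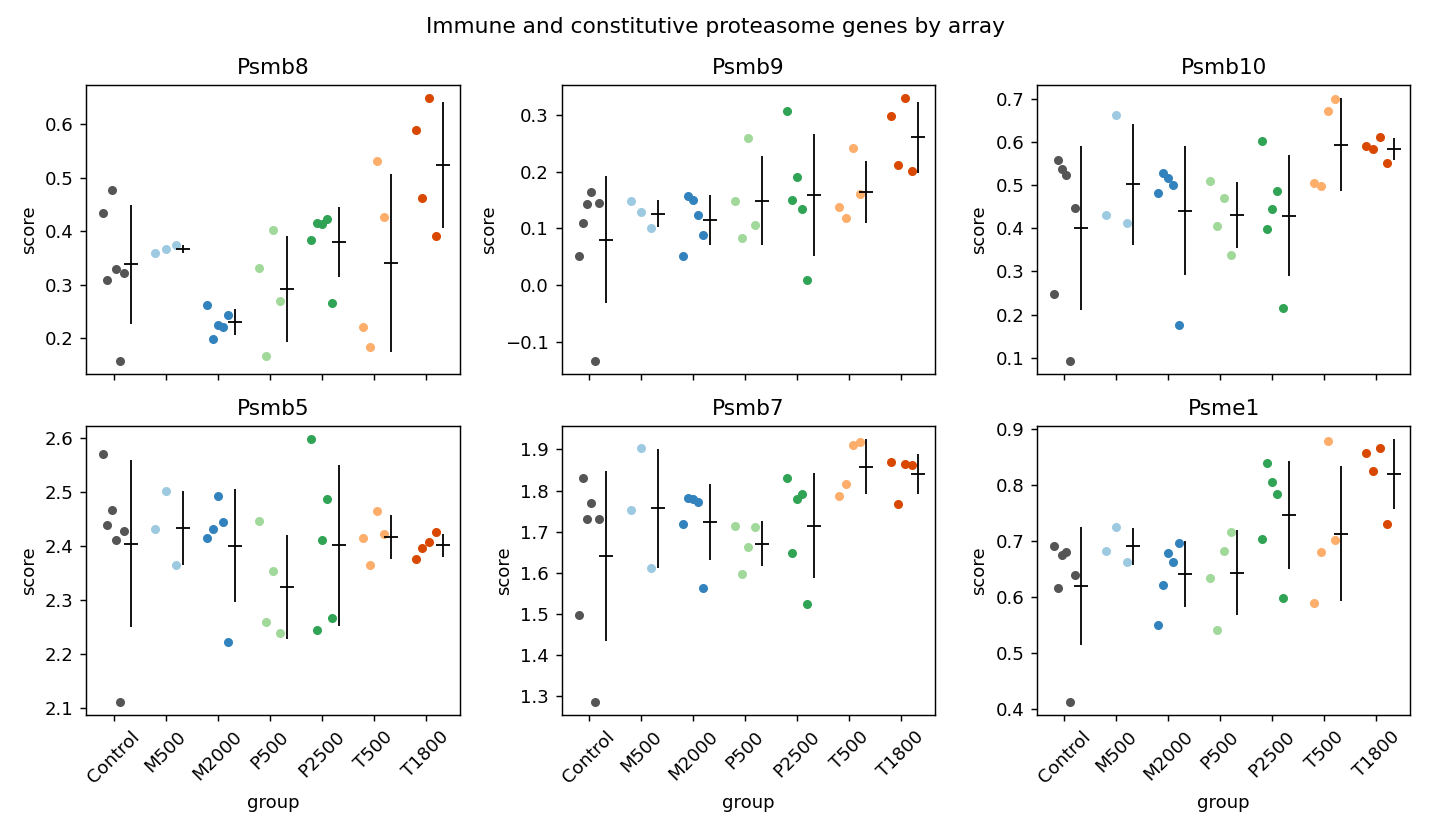
Scores of 3 immune beta genes (upper row), of their measured constitutive counterparts Psmb5 and Psmb7 and of the activator Psme1 (lower row), 1 point per array, by group (x axis). Bars beside the points give the mean and SD; in T1800 Psmb9 and Psme1 lie above all control arrays, Psmb8 runs from 0.390 to 0.648 and Psmb5 from 2.38 to 2.43.

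Among the activators, Psme1 (PA28 alpha) had control scores from 0.412 to 0.690 with a median of 0.657. The T1800 arrays had 0.856, 0.825, 0.865 and 0.730, above every control array. The difference was 0.201 (SE 0.0542, limma adjusted p = 0.53), the smallest adjusted p of a member in T1800. Its dimmer second probe set went the other way there, by -0.0569. In P2500 Psme1 had 0.704, 0.839, 0.806, 0.783 and 0.597, and the 3 middle values belong to the arrays with liver transcripts. The P2500 difference was 0.127 (limma adjusted p = 0.89), and 0.0318 without those 3 arrays.

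Psme2 (PA28 beta) had control scores from 0.266 to 0.552 with a median of 0.496 and 0.608, 0.592, 0.591 and 0.551 in T1800. The difference was 0.126 (SE 0.0474, limma adjusted p = 0.77), and 1 T1800 array lay just under the highest control array. Psme4 had control scores from 2.32 to 2.84 with a median of 2.43, and its differences from control ran from -0.0955 (T500) to 0.0684 (P500). None had a limma adjusted p below 0.73, and in T500 1 of its other two probe sets had the opposite sign. The inhibitor Psmf1 differed from control by -0.0909 in M500 (limma adjusted p = 0.62) and by -0.0404 to 0.0290 elsewhere.

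The later animal numbers allowed a comparison within 1 series for T1800 only, 3 arrays against 3. There Psme1 was higher by 0.230, Psmb8 by 0.231, Psmb10 by 0.227, Psmb9 by 0.189 and Psmd4 by 0.214. Of these 3 control arrays, replicate 06 had a large actin gap and the lowest control score in each of the 5 genes. Its scores were 0.412 for Psme1, 0.158 for Psmb8, 0.0926 for Psmb10, -0.133 for Psmb9 and 0.970 for Psmd4, so these differences lean on that array. Control replicate 02, in the earlier series, also had a large gap. In the earlier series 1 T1800 array against 3 control arrays gave 0.196 for Psme1, 0.183 for Psmb8, 0.142 for Psmb10, 0.197 for Psmb9 and 0.106 for Psmd4. For the 5 genes the sign was the same in both. For Psme1, Psmb9 and Psmd4 it could not differ, since every T1800 array lay above every control array. The other exposed groups lay wholly in the earlier series. Against its 3 control arrays Psmb8 differed by -0.0401 in M500, -0.176 in M2000, -0.114 in P500, -0.0265 in P2500 and -0.0663 in T500. In T500, Psma6 was higher there by 0.222, Psma1 by 0.236, Psmd10 by 0.180 and Psmb7 by 0.172, and in M500 Psma4 by 0.169. The signs of Psma1 and Psma4 were likewise fixed, as all arrays of those groups lay above every control array.

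Genes that present peptides or answer interferon, and leukocyte markers, were read beside the immune forms. Of 31 listed antigen presentation and interferon genes 27 were measured, and none passed the adjusted threshold by limma in T1800. At an unadjusted p below 0.05, 4 were higher (background 3.5%) and 1 lower (background 2.35%), and the list's median difference was 0.00185. Cd74, the invariant chain of class II molecules, had 1.14 ± 0.0782 in T1800 (n = 4) and 0.913 ± 0.161 in Control (n = 6), and Gbp2, an interferon-induced GTPase, -0.0772 against -0.179. Stat2, a transducer of type I interferon signals, was the 1 lower, by -0.0803. Of 19 leukocyte markers, all measured, 11 lay above 0 in T1800, with a median difference of 0.0141, and 4 were higher at that p (background 3.5%). Among the 4 were the complement gene C1qa (0.244 against 0.0789), the lysozyme gene Lyz2 (1.06 against 0.854) and C1qc (0.138 against 0.0554). The mean over the 19 was 0.284 ± 0.0187 in T1800 (0.257 to 0.298) and 0.244 in Control (0.187 to 0.277), and 9 of 19 lay below the median probe set in T1800 and 10 in Control. Their part in the immune forms' difference was not tested.

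Leydig cell markers, genes of the cells that make testosterone, were read in the same way. Of 7 listed, all measured, 2 were higher in T500 (background 4.04%) and 3 in T1800 (background 3.5%) at an unadjusted p below 0.05. In P2500 3 were higher as well (background 2.41%), and in M500, M2000 and P500 0 were. None passed the adjusted threshold by limma. Cyp17a1, an enzyme of androgen synthesis, had 1.55 ± 0.187 in Control (n = 6), 2.00 ± 0.118 in T500 and 2.00 ± 0.117 in T1800 (n = 4 each), with limma adjusted p-values of 0.55 and 0.73. Insl3, a hormone of Leydig cells, had 1.04 ± 0.427 in Control, 1.44 ± 0.155 in T500 and 1.52 ± 0.0824 in T1800, with limma adjusted p-values of 0.64 and 0.77. The mean over the 7 was 0.909 in Control (0.838 to 1.08), 1.06 in T500 (0.998 to 1.19) and 1.06 in T1800 (0.885 to 1.12), so the groups overlapped. In Control 1 of the 7 lay below the median probe set, and in T1800 none. The part of Leydig cell RNA in the proteasome differences was not tested.

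Across the 31 arrays, with each group's mean removed, the genes whose scores followed Psmb8 most closely were Mgst1 (r = 0.837), Reep5 (0.818), Hsd17b10 (0.777), Mdh1 (0.776) and Psme1 (0.764). Among the other immune genes r was 0.648 for Psme2, 0.640 for Psmb9 and 0.451 for Psmb10, and it was 0.451 for Psmb5. The arrays share RNA quality and scaling, and these values are a description.

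M500, the lower myclobutanil diet, had the smallest adjusted p of any member. Psma4, an alpha ring subunit, had control scores from 1.16 to 1.32 with a median of 1.26, and 1.32, 1.42 and 1.54 in M500. The 3 arrays lay above every control array, and the difference was 0.170 (SE 0.0356, unadjusted p = 5.6e-05, limma adjusted p = 0.11). With the actin gap as a covariate it passed (0.172, limma adjusted p = 0.024, where 0.744% of all probe sets passed), and also without M500 replicate 01 (0.225, limma adjusted p = 0.0091, where 0.503% of all probe sets passed). The highest of the 3, 1.54, belonged to the array with a large actin gap. Without that array the difference was 0.112.

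Psma4, Psma6, Psma7 and Psmd10 were the 4 of 60 probe sets with every M500 array above every control array (background 1.12%). Psma6 had 4.02, 4.13 and 4.04 in M500 (difference 0.169, limma adjusted p = 0.33), and Psmd10 had 1.28, 1.39 and 1.29 (0.163, limma adjusted p = 0.28). Psma7, the somatic counterpart of the germ cell form, had 1.29, 1.31 and 1.39 against control scores from 0.917 to 1.29. Its difference was 0.144, with a limma adjusted p of 0.36. Psma4 was also the 1 of 60 with every P500 array above control (background 0.441%), at 1.33, 1.34, 1.36 and 1.38. In P500 its difference was 0.0946 and in P2500 0.0715, each with a limma adjusted p of 1. M2000 and P2500 had no proteasome probe set with all arrays above control (backgrounds 0.087% and 0.113%), and none of the 6 groups had one with all arrays below (backgrounds from 0.0677% to 0.889%).

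In M2000 the members of smallest p were Psmd10 (0.114 above control) and Psma6 (0.107), both with a limma adjusted p of 1. In P500 they were Psma6 (0.158), Psma4 and the lid gene Psmd6 (0.127), each with a limma adjusted p of 1. In P2500 the ATPase Psmc1 had control scores from 1.61 to 1.69 and 1.51, 1.64, 1.55, 1.59 and 1.54, of which 4 lay below every control array. Its difference was -0.0792 (SE 0.0292, limma adjusted p = 0.7).

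The 3 compounds share a triazole ring. A nitrile sets myclobutanil apart, a dioxolane ring with a dichlorophenyl group propiconazole, and a ketone with a chlorophenoxy group triadimefon. They could be compared at 500 ppm, in 3 pairs, and no proteasome probe set passed the adjusted threshold in any pair by limma (0 of 60, background 0% in each, smallest adjusted p 0.66, 0.73 and 0.89). At an unadjusted p below 0.05, M500 had 1 probe set higher and 0 lower than P500 (backgrounds 3.62% and 3.86%). It had 2 higher and 1 lower than T500 (3.49% and 3.21%), and P500 had 1 higher and 1 lower than T500 (3% and 2.07%). For Psmb8 the differences were 0.0740 for M500 minus P500 (95% interval -0.0752 to 0.223), 0.0262 for M500 minus T500 (-0.123 to 0.176) and -0.0478 for P500 minus T500 (-0.186 to 0.0904). For Psmb9 they were -0.0233 (-0.146 to 0.0995), -0.0389 (-0.162 to 0.0838) and -0.0156 (-0.129 to 0.0980). For Psmb8 the intervals reach from -0.186 to 0.223, so they do not show that the compounds act alike.

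Between propiconazole and triadimefon at 500 ppm, the members that passed under an alternative fit were mostly core genes. Psma2, an alpha subunit, had 1.492, 1.503, 1.425 and 1.394 in P500 and 1.57, 1.60, 1.79 and 1.77 in T500, with no overlap. The difference was -0.230 (95% interval -0.559 to 0.1002, limma adjusted p = 0.89). Psmb2, a beta subunit with no active site, had 1.27, 1.25, 1.24 and 1.05 against 1.35, 1.30, 1.49 and 1.46, and Psmb7 had 1.71, 1.60, 1.66 and 1.71 against the T500 values given above. Without the 5 arrays of large gap, none of which is in these groups, the SE for Psma2 was 0.0466 in place of 0.161. In that fit 5 of 60 passed (2.18% of all probe sets): Psma2, Psmb2, Psmb7 and the lid gene Psmd8 lower in P500, and a dimmer Psme4 probe set higher. Limma adjusted p-values were 0.019, 0.032, 0.025, 0.044 and 0.040. The mean actin gap was 1.14 in P500 and 0.790 in T500, and its part in this difference was not tested. The high doses of 2000, 2500 and 1800 ppm differ, so their values stand side by side above and were not compared.

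Arrays of large actin gap differed from the rest in many proteasome genes. On 16 of 60 probe sets (26.7%, against 12.3% of all) each of the 5 arrays with a large actin gap lay below every other array of its group, and on 9 (15%, against 13.6%) above. The constitutive beta genes had a median difference between large-gap and other arrays of -0.311, the core assembly chaperones -0.339, the ATPases 0.0610 and all probe sets -0.00307. Psma2 had 0.728 and 0.848 on the control arrays of large gap and 1.54 to 1.60 on the other control arrays. Psmg4, a core assembly chaperone, differed by -0.601 on average, Psma2 by -0.529 and Psmb1, a beta subunit, by -0.483. In the other direction the brightest probe set of Psmd11 differed by 0.248, Psmd12 (a lid subunit) by 0.362 and Psmc2 by 0.242. Of the 3 Psmd11 probe sets 2 were higher and 1 lower on large-gap arrays, and Psmd14 (the deubiquitinase of the lid) showed the same split, so probe sets of 1 gene went opposite ways.

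**Figure D4:**
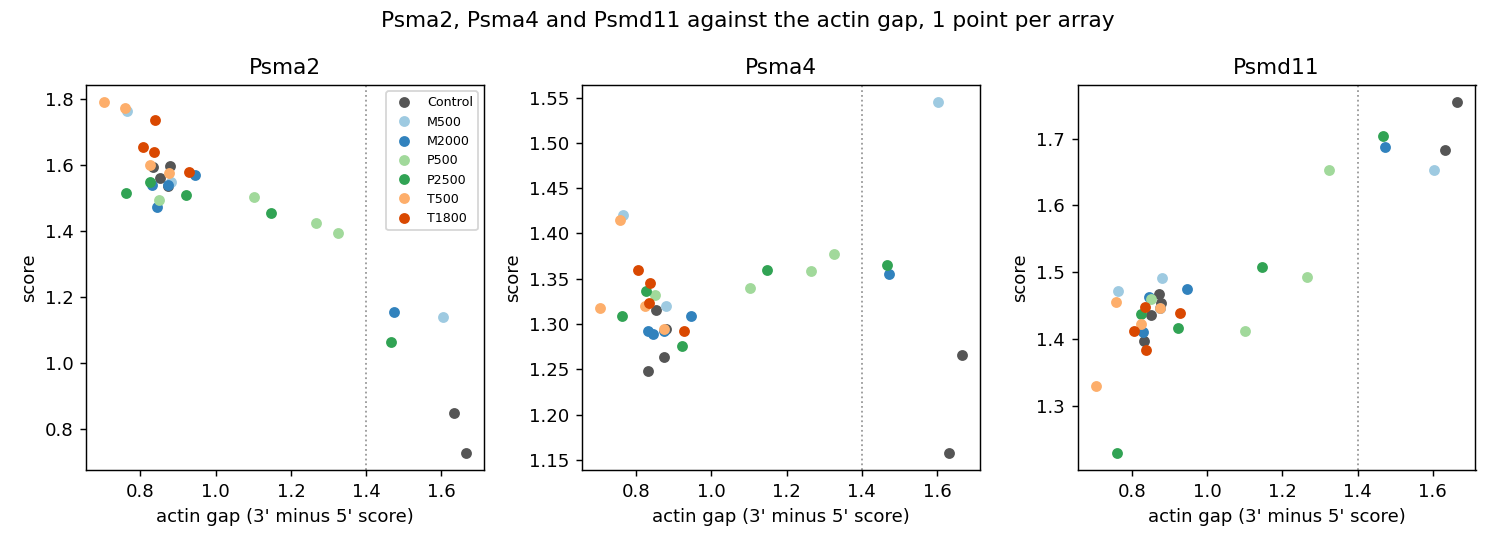
Scores of Psma2, Psma4 and Psmd11 (y axes) against the actin gap (x axis, score of the 3′ minus 5′ beta-actin probe set), 1 point per array, coloured by group. The dotted line marks a gap of 1.4. Right of it Psma2 lies lower and Psmd11 higher than on the other arrays of the group. Psma4 right of the line is the highest of its group in M500, M2000 and P2500, but not in Control.

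The partners of the proteasome were read from a list. Of 34 listed partners (ubiquitin genes, shuttle factors, deubiquitinases and regulators) 26 were measured. None passed the adjusted threshold in the 6 groups. At an unadjusted p below 0.05 none was higher or lower in T500 or T1800. The backgrounds were 4.04% higher and 3.58% lower in T500, and 3.5% and 2.35% in T1800. With shares this low, a count of none among 26 is near the background. Median differences of the partners were -0.0450 in T500 and -0.0193 in T1800. Pomp, the maturation factor of the core, had 2.04 ± 0.149 in T500 and 1.68 ± 0.443 in Control (limma adjusted p = 0.67), and Nfe2l2, a stress factor that drives proteasome genes in other settings, 0.755 in T1800 and 0.923 in Control (limma adjusted p = 0.77).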

How the data were processed

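Testis RNA of 31 animals was analysed, 1 array each. Per the labels' protocols, RNA from TRI Reagent was cleaned after a DNase step, reverse transcribed from oligo-dT and hybridised as biotinylated cRNA. The deposited values are scores, 1 per probe set, that behave like logarithms, with array medians from -0.00915 to 0.0558. The SD of an array's scores ran from 0.636 to 0.967. How the authors summarised, corrected and normalized the probes, and the base of the logarithm, are not given in the sources used here, so the scale stays unknown.

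Arrays were quantile normalized and fitted in R 4.3.3 with limma 3.58.1, with a mean for each of the 7 groups and Benjamini-Hochberg adjustment over the 31042 probe sets of a contrast (57 control probe sets were left out, threshold 0.05). Median SEs of the 6 differences with control were 0.0327 to 0.0382, set by the number of arrays. The script was tested on simulated data. For a gene with several probe sets the one of highest mean over all arrays was used. Named were the immune forms and counterparts, activators, the inhibitor and Psmc3ip. Members past the threshold, or otherwise up to 3 of smallest p in each direction, were named too. So were the 3 highest and lowest in rank, up to 3 of a list, and the 5 most like Psmb8. Other members are named where a count of theirs is given. The members and lists were chosen with earlier results of these data known. Same-numbered replicates of different groups did not deviate together (median r 0.0388, against 0.0372 for other numbers), so the numbers do not pair animals. Alternatives were other scaling, weights, filters, covariates, blocks and left-out arrays.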

Additional observations from a re-analysis of the deposited data

Results flagged for a closer look

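In a group of 4 to 10 arrays, a highest or lowest array was singled out where its gap to the nearest other was large against the group's range. Chance flags about 1 in 20 groups, and here 13 of 84 were. Control replicate 06 was lowest in Psmb5 (2.11), Psma7 (0.917) and Psme1 (0.412) and highest in Psme4 (2.84). M2000 replicate 05 was lowest in Psmb10 (0.175), Psmb5 (2.22), Psmb7 (1.56), Psmc3ip (1.67) and the pair difference Psmb10 minus Psmb7 (-1.39). P2500 replicate 05 was lowest in Psmb8 (0.265) and in the mean score of the 13 core ring genes (1.53). These 3 arrays each have an actin gap above 1.4, and its part in these values was not tested. P500 replicate 04 was lowest in Psmb10 minus Psmb7 (-1.37), and T1800 replicate 03 in Psmb7 (1.77).

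Psmb8 lay above the control mean on every M500 array and below it on every M2000 array, a difference of 0.136 between the groups. Both groups belong to the earlier animal series, and against its 3 control arrays alone Psmb8 differed by -0.0401 in M500 and by -0.176 in M2000, so the opposite signs were not seen there. This difference between the doses was not tested.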

How the results depend on the processing

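Of 9 contrasts, 4 gave a proteasome call under some alternative, each with limma's adjusted p. In M500, 1 of 60 probe sets (Psma4) passed without replicate 01 (0.503% of all probe sets) and with the actin gap as covariate (0.744%), and 1 on the scores as deposited (Psma1; 0.0193%). With array weights 1 of 60 passed in P2500 (Psme1, adjusted p 0.044), a smaller share than the 2.84% of all probe sets, and 2 of 60 in T1800 (Psme1 0.016, Psmb9 0.047; 0.85% of all). Over the other alternatives for these contrasts the T1800 adjusted p ran from 0.38 to 0.94 for each of them. Without the arrays of large actin gap 5 passed in P500 minus T500 (2.18% of all). Leaving out 1 array at a time gave 0 to 1 calls in M500 and 0 in each other contrast. The replicate number as a block gave 0 calls in all contrasts, but moved the count higher at an unadjusted p below 0.05 from 15 to 5 in T500 and from 13 to 6 in T1800. The share of all probe sets at that p is not given for that fit.

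The median difference over the 60 probe sets on the scores as deposited was 0.149 in M500, -0.0523 in M2000, -0.0198 in P500, -0.0313 in P2500 and -0.00513 in T1800. Without the arrays of large actin gap it was -0.00106 in M2000 and 0.0130 in T1800, and with all probe sets of a gene averaged 0.0721 in T1800. Leaving out 1 array at a time, it ran from -0.000599 to 0.0258 in M2000 (lowest without Control replicate 06) and from 0.0283 to 0.0654 in T1800 (lowest without Control replicate 02). As deposited, Psmb8 minus Psmb5 changed by -0.378 in M500, 0.128 in M2000, 0.194 in P500, 0.192 in P2500 and 0.324 in T1800, and Psmb10 minus Psmb7 by -0.210, 0.0813, 0.0433 and 0.0574 in M500, M2000, P2500 and T1800.

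Single genes turned sign as follows, none of them past the threshold. As deposited these were Psmd2 (0.237), Psmf1 (0.446) and Psme4 (0.371) in M500, Psma6 (-0.340) and Psma4 (-0.0513) in M2000, Psma6 (-0.232) in P500, and Psma4 (-0.00313) and Psma6 (-0.205) in P2500. Between compounds they were Psmd1 (0.0654), Psme4 (0.468) and Psmf1 (0.651) in M500 minus P500, Psmc1 (0.179) in M500 minus T500, and Psmc5 (-0.0263) and Psmc3 (-0.0708) in P500 minus T500. With array weights they were Psmd2 in M500 (0.0123), P500 (0.0513), P2500 (0.0355) and T1800 (0.0206), Psme4 in M500 (0.0203) and Psme3ip1 in M2000 (0.0124). Without the arrays of large actin gap they were Psme4 in M500 (0.0124), Psme3ip1 in M2000 (0.00516), Psmd2 in P500 (0.0365), P2500 (0.00858) and T1800 (0.00874), and Psmc1 in M500 minus T500 (0.000132, as without M500 replicate 04). With the gap as a covariate they were Psmd11 in T500 (0.00253) and Psmc6 in T1800 (0.00333), and with the replicate block Psme4 in M500 (0.00459). Without M2000 replicate 05 Psme3ip1 in M2000 was 0.0132, within a range of -0.0425 to 0.0132 over left-out arrays, and Psmc1 in M500 minus T500 ran from -0.0878 to 0.000132. The cause of these changes was not tested. Percentiles in Control of the 5 immune and counterpart genes followed kept within 1 SD under each alternative. Array number, 3 to 6 a group, limits the precision, and the array signals carry no count from which depth could be read.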
